A study of Saccharomyces cerevisiae with 9 samples.

Results

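The genes described here are yeast reading frames that carry no gene name, only a systematic one such as YDL218W, and whose array signal was raised in both kinds of dry yeast. They were chosen by their values. A probe set, the group of short oligonucleotides that reports 1 transcript on the array, was taken where the annotation gives it a single gene with a systematic name only, and where its mean deposited signal was at least 200 in dried BY4743 and in commercial yeast and at least 4 times the mean of the control in each, with the control mean raised to a floor of 50. The rule also left out 5 genes by name: YFL054C, YNL190W, YHR020W, YAR028W and YAR029W. Of 537 probe sets with a systematic name only, 2 fell away in this manner. This rule found 28 probe sets for 27 genes, out of 535 probe sets for 447 genes that it could choose from and 9275 non-control probe sets on the array. All 535 were found in the RefSeq gene table of assembly R64, and 0 of them, the 28 included, have a gene name there.

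The arrays were Affymetrix Yeast S98 arrays, on which labelled RNA of 1 sample is hybridised and each probe set gives 1 intensity, here called the signal. There were 3 arrays in each of 3 groups. Control BY4743, a laboratory diploid of Saccharomyces cerevisiae that lacks working URA3, LEU2 and HIS3 genes, was grown in rich glucose medium at 30 °C to an absorbance of 0.8, spun down and resuspended in the same medium diluted 1 to 20. Dried BY4743 came from such a suspension, dried in dishes over 42 h and then held for 72 h at 20% relative humidity, so the dried cells differ from the control both in water and in the time spent in dilute medium. The commercial group was dry active yeast, whose strain, growth and drying are not given in the sources used here, so strain, culture and drying cannot be told apart in any comparison with it. Whether replicate arrays represent different cultures is not stated in the labels, and the tests therefore weigh differences against a spread that may be technical only.

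Reading frames without a name are mostly those whose product has no settled function. Many are expressed weakly in growing cells on glucose, the state in which yeast is usually studied, and more strongly when glucose runs out, in stationary phase or under stress. Yeast also kept pairs of genes from an ancient duplication of its genome, and in some pairs 1 copy serves growing cells while its partner is expressed in starved or stressed cells. Survival of drying is linked in yeast to stored trehalose, chaperones and small hydrophilic proteins called hydrophilins.

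Because control, dried and commercial means chose the genes, their changes against the control are given below as a description, with the standard error (SE, n = 3 arrays a group) of the fit and no test. The difference between commercial and dried yeast was not itself a threshold of the rule and was tested. Both means had to pass the same thresholds, though, so probe sets high in a single dry yeast were left out. The test is therefore not independent of the choice of genes. Signals in the text are those deposited, array by array in replicate order, in arbitrary units, and changes are log2 differences of quantile normalized signals.

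Array medians ran from 159.9 to 194.7, and a background set from control probe sets with absent targets lay between 32.2 and 59.5 in normalized signal, with 72.1% to 81.3% of probe sets above it. URA3, deleted in BY4743, read 0.6 to 2.2 on the 6 BY4743 arrays and 329 to 396 on the commercial arrays, which sets the commercial strain apart. Of 5 loci used to check genotype, URA3 among them, 4 lay above background on at least 1 array in the control, 3 in dried and 5 in commercial yeast. The mating and spore markers below were counted in the same way. HIS3 was among the loci above background in the control and in dried BY4743, although BY4743 lacks working HIS3. A probe set of LEU2 read 81.7, 64.9 and 84.6 in the control, above background on all 3 arrays, although BY4743 lacks working LEU2. It read 10.2 to 36.9 in dried BY4743, at background, and 346.7 to 436.7 in commercial yeast. The other LEU2 probe sets lay at background on the BY4743 arrays. The source of the LEU2 signal in the control and of the HIS3 signal in BY4743 was not tested. Of 10 haploid mating markers, 5 lay above background in the control, 4 in dried and 8 in commercial yeast, with summed signals of 701.9 to 835.7, 691.1 to 829.5 and 968.5 to 1106. Of 7 spore markers, 1, 3 and 2 lay above background, with summed signals of 115 to 147, 2035 to 2948 and 4106 to 4629, while DIT2, SMK1, SPS2 and SPS4 stayed at background in all groups. The log2 difference between the 3′ and 5′ probe sets of ACT1, a measure of RNA integrity, was -0.56 to -0.20 in the control, 1.10 to 1.51 in dried and 0.44 to 0.64 in commercial yeast. The same measure was highest in commercial yeast for SRB4, with means of 1.23 ± 0.27, 1.56 ± 0.10 and 2.15 ± 0.27 in control, dried and commercial yeast, and for SPT15, with 1.41 ± 0.12, 1.54 ± 0.16 and 2.01 ± 0.09 (SD, n = 3), so the 3 genes did not give the dry yeasts the same order. The part of mating state, sporulation and RNA integrity in the results below was not tested. In RNA from a whole culture, fewer cells of a type and less RNA per cell cannot be told apart.

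All 28 probe sets lay above background on all 6 dry arrays, and all 6 of those arrays lay above all 3 control arrays for each of them, which the rule nearly fixes and which held for 27.1% of all probe sets. Of all probe sets, 36.2% were higher and 33.0% lower at an adjusted p under 0.05 in dried BY4743 (69.2% together), and 35.5% were higher and 37.0% lower in commercial yeast (72.5% together). Among the 22 probe sets with any control array above background, the change ran from 2.17 for YPL119C-A to 5.14 for YMR085W in dried BY4743 and from 2.01 for YER084W to 6.98 for YDL218W in the commercial yeast. The other 6 lay at or under background on all control arrays, and their change is a lower bound or, where a signal is listed at 0, is not given. Every one of the 28 was above the control in both dry groups with signals as deposited, with arrays centred on their medians and with arrays scaled to spike-in controls. Under spike-in scaling the median change of all probe sets was -0.29 in dried and -1.43 in commercial yeast, against 0.04 and -0.01 in the setting used here, and 27 of the 28 were at least 4-fold above the control in dried BY4743 and 16 in the commercial yeast.

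**Figure D1:**
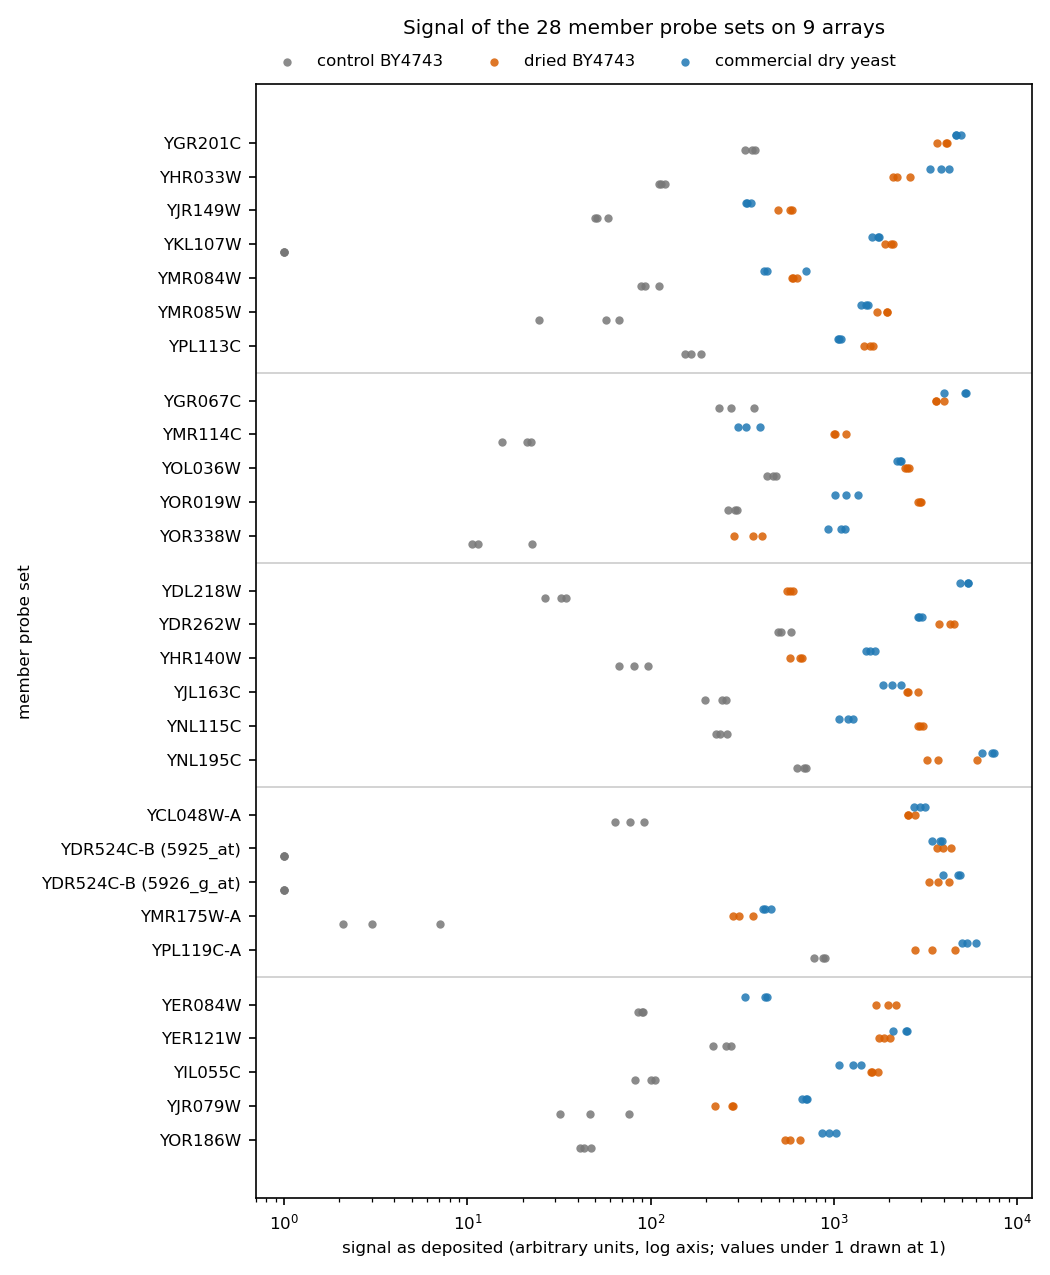
Deposited signal (arbitrary units, log axis) of the 28 probe sets on the 9 arrays, 1 point per array, coloured by group; lines separate the groups of roles in the order of the text, and values under 1 are drawn at 1. Every dry array lies to the right of every control array, from YKL107W and YDR524C-B, whose control points sit at the left edge, to YPL119C-A, whose control arrays already read 783 to 899.

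These genes, raised in both dry yeasts by the rule, differed in level between the dry yeasts in many cases. In the test of commercial against dried BY4743, 8 of the 28 probe sets were higher in commercial yeast (28.6%) and 9 were lower (32.1%), by limma with Benjamini-Hochberg adjustment over all 9275 probe sets at a threshold of 0.05. Over all probe sets 33.1% were higher and 33.5% lower, 66.5% together, so the share of 60.7% among the 28 is near the background. At least 2-fold and called were 4 higher (YDL218W, YOR338W, YJR079W and YHR140W) and 4 lower (YER084W, YMR114C, YOR019W and YNL115C), against 38.1% of all probe sets in either direction. The 3 commercial arrays did not overlap the 3 dried arrays for 24 of the 28, against 75.0% of all probe sets (41.1% with commercial higher and 34.0% with it lower), and 16 were both called and without overlap, against 62.1%. The median change was -0.11 among the 28 and 0.00 over all probe sets, and the median size of the change without its sign was 0.42 and 0.79. That size was also 0.42 over all 312 probe sets past the same thresholds and 0.40 over the 255 with a gene name. The smaller size is thus not particular to the 28. With spike-in scaling, which places the median of all probe sets at -1.10 in this comparison, 1 of the 28 was higher and 19 were lower, and over all probe sets 13.2% of calls were higher where the setting used here gave 49.7%. Raising dim signals to background before log2 gave 38.4%.

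**Figure D2:**
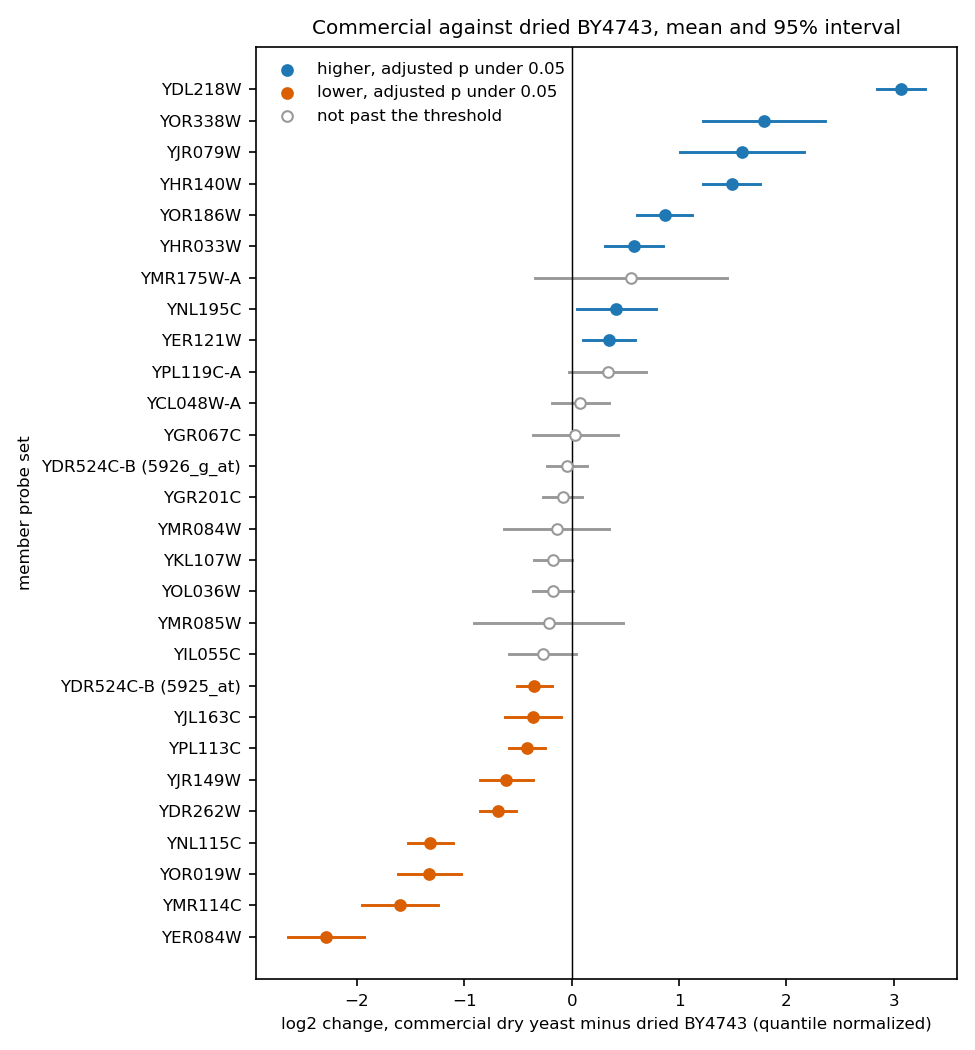
Log2 change of commercial dry yeast minus dried BY4743 for the 28 probe sets, ordered by size; points are means of 3 arrays against 3, lines are 95% intervals, and filled points passed the adjusted threshold of 0.05. YDL218W lies furthest to the right at 3.07 and YER084W furthest to the left at -2.29. The 11 open points lie from -0.27 for YIL055C to 0.55 for YMR175W-A, and some filled points, such as YER121W at 0.35, lie nearer to 0 than the last.

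Among the genes whose products resemble enzymes, 7 in number, 1 was higher and 2 were lower in commercial than in dried yeast. For this and the later groups of roles, the share over all probe sets is 33.1% higher and 33.5% lower. The groups are small and their counts were not tested. YKL107W, a member of the short-chain dehydrogenase and reductase family by its sequence, read 0.6, 0.8 and 0.6 in the control, 2115, 2058 and 1907 in dried BY4743 and 1753, 1615 and 1747 in the commercial yeast. Its control arrays lay at background, so its rise was at least 49.3-fold in dried BY4743 and at least 43.8-fold in the commercial yeast. Commercial and dried yeast differed by -0.17, with a 95% interval from -0.35 to 0.01 and an adjusted p of 0.0815, and every commercial array lay below every dried array. YKL107W was called lower with signals as deposited (adjusted p = 0.0215) and spike-in scaling (0.000882), but not with median-centred arrays (0.0685).

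YGR201C, which resembles the gamma subunit of translation elongation factor 1B and glutathione S-transferases, read 373, 328 and 357 in the control, 4168, 4094 and 3666 in dried BY4743 and 4913, 4629 and 4643 in the commercial yeast. Its change was 3.55 ± 0.08 in dried BY4743 and 3.47 ± 0.08 in the commercial yeast, among the smallest differences between the 2 dry yeasts at -0.08, with a 95% interval from -0.26 to 0.09 and an adjusted p of 0.362. That difference turned to 0.25 with signals as deposited (adjusted p = 0.0353) and 0.28 with median-centred arrays (0.0311), both past the threshold. With spike-in scaling it passed in the other direction (-0.98, adjusted p = 0.0161). Whether YGR201C differs between the dry yeasts thus depends on the normalization.

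YHR033W is a duplicate of PRO1, the gamma-glutamyl kinase that starts proline synthesis. It read 111, 114 and 120.2 in the control, 2221, 2605 and 2095 in dried BY4743 and 3826, 4269 and 3351 in the commercial yeast. The change against the control was 4.21 ± 0.12 in dried BY4743 and 4.79 ± 0.12 in the commercial yeast, and it was higher in commercial than in dried yeast (0.58 ± 0.12, adjusted p = 0.00264), but -0.51 with spike-in scaling. All 3 commercial arrays lay above all 3 dried arrays.

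YPL113C, which resembles 2-hydroxyacid dehydrogenases, read 189, 154 and 167 in the control, 1575, 1462 and 1639.7 in dried BY4743 and 1049, 1072 and 1097 in the commercial yeast. The commercial arrays lay below the dried arrays throughout, and it was lower in commercial yeast (-0.42 ± 0.07, adjusted p = 0.00119). YJR149W, which resembles nitronate monooxygenases, read 58.4, 49.6 and 50.9 in the control, 594, 575 and 494 in dried BY4743 and 337, 332 and 354 in the commercial yeast. It was also lower in commercial yeast (-0.61 ± 0.10, adjusted p = 0.0012), with no overlap between the groups.

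YMR084W and YMR085W are adjacent reading frames that together resemble GFA1, the enzyme that makes glucosamine 6-phosphate for chitin and protein glycosylation, and that form 1 gene in some other strains. YMR084W read 111, 93.5 and 88.9 in the control, 598, 631 and 591 in dried BY4743 and 703, 431 and 414 in the commercial yeast. YMR085W read 57.2, 67.5 and 24.7 in the control, 1709.8, 1943 and 1942 in dried BY4743 and 1406, 1542 and 1489.9 in the commercial yeast. The first commercial array of YMR084W stood above the other 2 and above all dried arrays, and the commercial group had a coefficient of variation of 31.4%. Commercial against dried, YMR084W differed by -0.14, with a 95% interval from -0.63 to 0.35 and an adjusted p of 0.576, and without the first commercial array it was lower (-0.41, adjusted p = 0.00828). YMR085W, whose change against the control was 5.14 ± 0.30 in dried BY4743 and 4.93 ± 0.30 in the commercial yeast, differed between the dry yeasts by -0.21, with a 95% interval from -0.91 to 0.48 and an adjusted p of 0.547.

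A second set of 5 genes holds a possible regulator, a relative of a DNA repair factor and 3 genes known as duplicates of another gene, with 1 higher and 2 lower in commercial yeast. YGR067C encodes a zinc-finger protein resembling Adr1, the activator of genes for use of ethanol and fatty acids. It read 273, 236 and 368 in the control, 3591, 3967 and 3617 in dried BY4743 and 5214, 5269 and 4007 in the commercial yeast. Its change was 3.75 ± 0.17 in dried BY4743 and 3.78 ± 0.17 in the commercial yeast. Commercial and dried yeast differed by 0.03, with a 95% interval from -0.36 to 0.43 and an adjusted p of 0.884, the smallest size of change among the 28, and the sign turned without commercial replicate 1 (-0.02) or 2 (-0.01).

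YMR114C carries a domain shared with human HMCES, which in human cells protects DNA at lost bases. It read 22.1, 21.1 and 15.4 in the control, 1166, 996 and 1015 in dried BY4743 and 299, 332 and 396 in the commercial yeast. Control arrays were at background, so the rise was at least 25.1-fold in dried BY4743 and at least 8.31-fold in the commercial yeast. It was lower in commercial than in dried yeast (-1.60 ± 0.15, adjusted p = 4.51e-05), 3.02-fold, and no commercial array reached the lowest dried array.

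YOR338W, a duplicate of FUN19, went the other way and read 22.4, 10.6 and 11.4 in the control, 283, 406 and 363 in dried BY4743 and 930.0, 1087 and 1148 in the commercial yeast. Its control arrays were at background, and the rise was at least 7.93-fold in dried BY4743 and at least 27.4-fold in the commercial yeast. It was higher in commercial yeast (1.79 ± 0.24, adjusted p = 0.000333), with all commercial arrays above all dried arrays. With spike-in scaling YOR338W, YJR079W and YHR140W no longer passed the threshold.

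YOR019W, a duplicate of JIP4, read 289, 297 and 263 in the control, 2992, 2893 and 2942 in dried BY4743 and 1353, 1009 and 1163 in the commercial yeast. The change against the control was 3.37 ± 0.13 in dried BY4743 and 2.04 ± 0.13 in the commercial yeast. It was lower in commercial yeast (-1.32 ± 0.13, adjusted p = 4.43e-05), where the arrays did not overlap. YOL036W, a duplicate of YIR016W, read 464, 482 and 431 in the control, 2511, 2449 and 2572 in dried BY4743 and 2214, 2327 and 2300.1 in the commercial yeast. The 2 dry groups did not overlap for YOL036W, yet the difference of -0.17, with a 95% interval from -0.36 to 0.01 and an adjusted p of 0.0844, missed the threshold.

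All 6 genes whose products are predicted in membranes or were placed in an organelle were called between the dry yeasts. In the commercial yeast 3 were higher and 3 lower, where 66.5% of all probe sets were called in either direction. The calls of YNL195C and YJL163C were lost in some settings. YDL218W, a predicted membrane protein, differed most of all 28. It read 34.5, 32.6 and 26.6 in the control, 574, 552 and 598 in dried BY4743 and 5413, 4881 and 5394 in the commercial yeast. Of the control arrays 1 lay above background, and the change was 3.91 ± 0.10 in dried BY4743 and 6.98 ± 0.10 in the commercial yeast. Commercial yeast was 8.39-fold above dried yeast (3.07 ± 0.10, adjusted p = 2.33e-07), with no overlap, and still higher by 1.95 under spike-in scaling, where it was the only 1 of the 28 called higher.

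YHR140W, another predicted membrane protein, read 97.2, 67.3 and 81.3 in the control, 667, 578 and 656 in dried BY4743 and 1493, 1678 and 1574 in the commercial yeast. Against the control its change was 2.75 ± 0.11 in dried BY4743 and 4.24 ± 0.11 in the commercial yeast, and it was higher in commercial yeast (1.49 ± 0.11, adjusted p = 1.41e-05), with no overlap between the dry groups. YNL195C, found in mitochondrial preparations, read 689, 707 and 631 in the control, 3682, 6057 and 3237 in dried BY4743 and 7253, 7498 and 6444 in the commercial yeast. Dried replicate 2 stood far above the other dried arrays of YNL195C, with a coefficient of variation of 35.1%. YNL195C passed the threshold narrowly (0.42 ± 0.16, adjusted p = 0.0482), and the call was lost with only the 6 dry arrays in the fit and without any 1 of the 9 arrays except dried replicate 2 (adjusted p from 0.063 to 0.151). With spike-in scaling it was -0.48.

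YNL115C, placed in mitochondria by a large-scale survey, read 259.9, 239 and 227 in the control, 2888, 3054 and 2939 in dried BY4743 and 1275, 1072 and 1199 in the commercial yeast. Its change against the control was 3.60 ± 0.09 in dried BY4743 and 2.29 ± 0.09 in the commercial yeast, and it was lower in commercial yeast (-1.32 ± 0.09, adjusted p = 7.86e-06), where every array lay below every dried array. YDR262W, placed in the vacuole, read 585, 495 and 513 in the control, 4307, 4509 and 3744 in dried BY4743 and 2906, 2894 and 3026 in the commercial yeast. It was lower in commercial yeast by a smaller amount (-0.69 ± 0.07, adjusted p = 8.36e-05). YJL163C, a predicted membrane protein, read 257, 246 and 198 in the control, 2535, 2866 and 2511 in dried BY4743 and 2317, 1850.1 and 2073 in the commercial yeast. It was lower (-0.36 ± 0.11, adjusted p = 0.021), but not without dried replicate 2 (adjusted p = 0.0655) or commercial replicate 2 (0.0722) or 3 (0.0544), nor with median-centred arrays (0.0508).

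Very short reading frames gave 5 probe sets for 4 genes, of which 0 were higher and 1 was lower in commercial yeast. In the R64 table YMR175W-A spans 195 bases, YDR524C-B 201, YCL048W-A 240 and YPL119C-A 264, so that 4 of the 27 genes (14.8%) span at most 300 bases, against 304 of 6021 protein-coding genes (5.05%), with median spans of 954 and 1203 bases. The share among the 447 genes that the rule could choose from was not computed, so the difference may lie in that pool. YCL048W-A and YDR524C-B are a duplicate pair of unknown function. YCL048W-A read 91.6, 64.1 and 77.6 in the control, 2755, 2524 and 2551 in dried BY4743 and 2958, 3138 and 2752 in the commercial yeast. The change was 5.01 ± 0.12 in dried BY4743 and 5.09 ± 0.12 in the commercial yeast, and the dry yeasts differed by 0.08, with a 95% interval from -0.19 to 0.35 and an adjusted p of 0.561.

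YPL119C-A read 871, 783 and 899 in the control, 3414, 4590.2 and 2758 in dried BY4743 and 4989, 5318 and 5955 in the commercial yeast. Dried replicate 2 was again the highest dried array, and the coefficient of variation of the dried group was 25.9%. Its commercial arrays lay above its dried arrays, but the difference of 0.33, with a 95% interval from -0.03 to 0.69 and an adjusted p of 0.0904, missed the threshold. It passed without dried replicate 2 (adjusted p = 0.0254), with signals as deposited (0.0155) and with median-centred arrays (0.0192). With spike-in scaling the difference was -0.61. YMR175W-A read 7.1, 2.1 and 3.0 in the control, 282, 305 and 363 in dried BY4743 and 452, 418 and 408 in the commercial yeast. With its control arrays at background, the rise was at least 7.2-fold in dried BY4743 and at least 10.6-fold in the commercial yeast, and the dry yeasts, which did not overlap, differed by 0.55, with a 95% interval from -0.34 to 1.45 and an adjusted p of 0.236. Adding 50 to every signal before log2 gave an adjusted p of 0.000831.

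YDR524C-B has 3 probe sets, and they disagreed. Probe set 5925_at read 0, 0 and 0 in the control, 3932, 4346 and 3631 in dried BY4743 and 3427, 3872 and 3813 in the commercial yeast. Probe set 5926_g_at read 0, 0 and 0 in the control, 3682, 4245 and 3313 in dried BY4743 and 4883, 4748 and 3919.9 in the commercial yeast. Both were listed at 0 on all 3 control arrays, so no fold is given. The suffixes of 5926_g_at and 5887_i_at mark probe sets without a full set of probes of their own, so the source of their signal is uncertain. The third probe set, 5887_i_at, did not meet the rule and read 2402, 3753 and 4226 in the control, 4677, 5023 and 4444 in dried BY4743 and 5924, 6712 and 6284 in the commercial yeast. The signal of 5887_i_at was already bright in the control and rose by 0.67 ± 0.19 in dried BY4743 (adjusted p = 0.014) and 0.68 ± 0.19 in the commercial yeast (adjusted p = 0.0123), by limma with Benjamini-Hochberg adjustment.

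An exact 0 on these arrays can be a failed estimate. On all 3 control arrays 5 probe sets were listed at 0, among them others for SSA1, a cytosolic Hsp70 chaperone, and RPS26A, a ribosomal protein gene that another probe set with shared probes read at 3059.5 to 3362. ENO2, the enolase of glycolysis, was listed at 0, 1574 and 0 in the control. Between the dry yeasts 5925_at was lower in commercial yeast (-0.35 ± 0.07, adjusted p = 0.00269), although its arrays overlapped and the call was lost with signals as deposited (0.377) and median-centred arrays (0.616). Probe set 5926_g_at differed by -0.04, with a 95% interval from -0.23 to 0.14 and an adjusted p of 0.654, and 5887_i_at by 0.01, with a 95% interval from -0.43 to 0.45 and an adjusted p of 0.967.

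**Figure D3:**
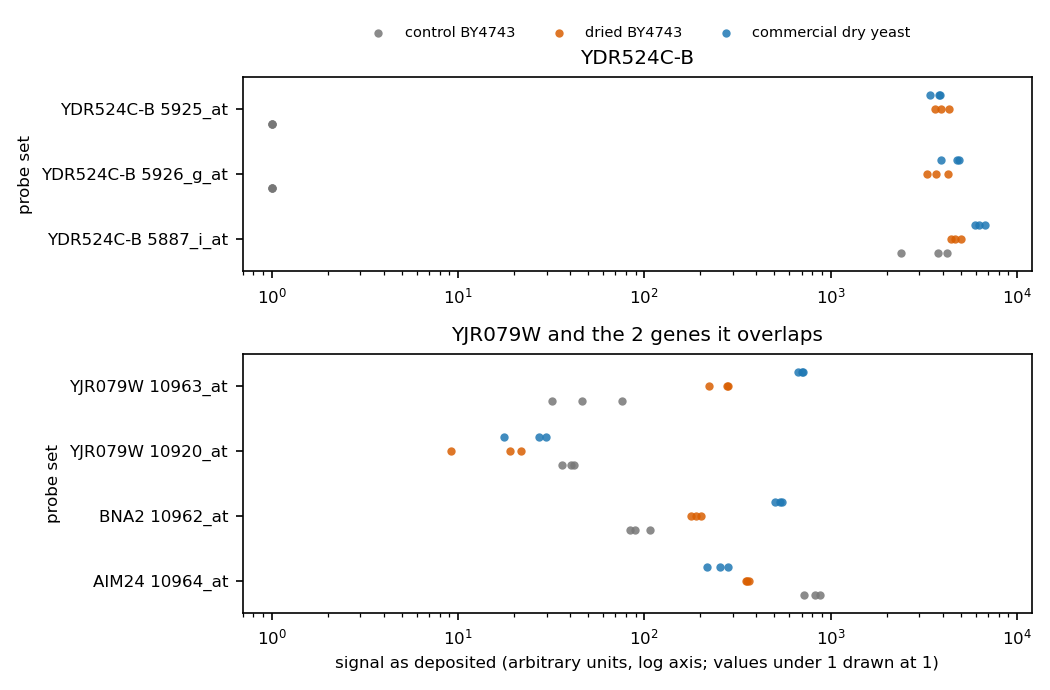
Deposited signal (arbitrary units, log axis, values under 1 drawn at 1) of the 3 probe sets of YDR524C-B (upper panel) and of the 2 probe sets of YJR079W with the genes it overlaps (lower panel), 1 point per array. The control points of 5887_i_at lie beside its dry points while those of the other 2 probe sets lie at the left edge, and 1 probe set of YJR079W has its dry arrays below its control arrays.

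The last 5 genes have no role that can be stated, and 3 were higher and 1 was lower in commercial yeast. YER084W had the largest difference toward dried yeast and read 90.7, 85.8 and 89.6 in the control, 1973, 2185 and 1704 in dried BY4743 and 328, 429 and 423 in the commercial yeast. Its change was 4.30 ± 0.15 in dried BY4743 and 2.01 ± 0.15 in the commercial yeast, and it was 4.88-fold lower in commercial than in dried yeast (-2.29 ± 0.15, adjusted p = 7.12e-06), with no overlap between the groups.

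YOR186W read 43.4, 41.1 and 47.3 in the control, 539.5, 574 and 650.1 in dried BY4743 and 858, 939.5 and 1027 in the commercial yeast. With a change of 3.50 ± 0.11 in dried BY4743 and 4.37 ± 0.11 in the commercial yeast, it was higher in commercial yeast (0.86 ± 0.11, adjusted p = 0.000208), but -0.56 with spike-in scaling. YER121W read 274, 258 and 218 in the control, 2037, 1773 and 1888 in dried BY4743 and 2465, 2111 and 2516 in the commercial yeast. It was slightly higher (0.35 ± 0.10, adjusted p = 0.0181), but not without dried replicate 2 (0.0601) or commercial replicate 1 (0.0562) or 3 (0.0579), and it was -0.92 with spike-in scaling. YIL055C read 100.4, 81.7 and 106 in the control, 1746, 1595 and 1610.3 in dried BY4743 and 1274, 1414 and 1060.0 in the commercial yeast. The dry arrays of YIL055C did not overlap, and the difference of -0.27, with a 95% interval from -0.58 to 0.04 and an adjusted p of 0.109, missed the threshold. YIL055C was called lower with signals as deposited (adjusted p = 0.0305), median-centred arrays (0.0438) and spike-in scaling (0.00066).

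YJR079W has 2 probe sets, which also disagreed. The chosen one, 10963_at, read 76.0, 31.9 and 46.5 in the control, 278, 224 and 281 in dried BY4743 and 668, 706 and 709.7 in the commercial yeast. Its change was 2.18 ± 0.25 in dried BY4743 and 3.76 ± 0.25 in the commercial yeast, and it was higher in commercial yeast (1.58 ± 0.25, adjusted p = 0.000714), with no overlap. The other, 10920_at, read 40.6, 42.0 and 36.2 in the control, 21.9, 9.2 and 19 in dried BY4743 and 27.1, 17.6 and 29.7 in the commercial yeast. On that probe set the dry arrays all lay below the control arrays and at or under background, and 1 control array lay above it.

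In the R64 table YJR079W overlaps BNA2, an enzyme of NAD synthesis from tryptophan on the same strand, and AIM24, a mitochondrial protein gene on the opposite strand. BNA2 read 108, 89.5 and 84.0 in the control, 201, 189.8 and 178 in dried BY4743 and 501, 537 and 551 in the commercial yeast. It rose by 0.82 ± 0.09 in dried BY4743 (adjusted p = 8.93e-05) and 2.43 ± 0.09 in the commercial yeast (adjusted p = 2.24e-07), and it was higher in commercial than in dried yeast (1.61 ± 0.09, adjusted p = 3.35e-06). AIM24 read 882, 830.1 and 722 in the control, 351, 365 and 358 in dried BY4743 and 281, 257 and 217 in the commercial yeast. It was lower in both, with a change of -1.24 ± 0.11 in dried BY4743 (adjusted p = 2.17e-05) and -1.68 ± 0.11 in the commercial yeast (adjusted p = 4e-06). Signal of YJR079W and of BNA2 cannot be told apart here where their probes lie in the shared stretch, which was not analysed.

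Genes next to the 27 were examined for the same rise. An adjacent gene past the 4-fold in both dry groups was found for 6 of the 27 (22.2%), against 450 of 5656 genes with a probe set (7.96%) and 38 of the 255 genes past the fold themselves (14.9%). These shares are given with no test, and neighbours on 1 strand may share transcripts. YMR084W and YMR085W are neighbours of each other and account for 2 of the 6.

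YMR175W-A lies beside SIP18 on the same strand, a hydrophilin gene that read 1.2, 1.0 and 1.5 in the control, 3358, 3638 and 2805 in dried BY4743 and 4381, 4315 and 3790.4 in the commercial yeast. Control arrays of SIP18 were at background and its rise was at least 85.2-fold in dried BY4743 and at least 90.9-fold in the commercial yeast. YNL195C lies beside SLZ1 on the same strand, a gene of sporulation and RNA methylation in meiosis. SLZ1 read 2.4, 2.3 and 3.1 in the control, 539, 528 and 548 in dried BY4743 and 974, 1084 and 937 in the commercial yeast, and like YNL195C it was higher in commercial than in dried yeast (1.07 ± 0.12, adjusted p = 0.000134).

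YPL119C-A lies beside DBP1, an RNA helicase gene on the same strand, which read 178, 146 and 164 in the control, 2388, 2159 and 2334 in dried BY4743 and 1513, 1862 and 1748 in the commercial yeast. DBP1 was lower in commercial than in dried yeast (-0.39 ± 0.10, adjusted p = 0.00871), where YPL119C-A was not called. YNL115C converges on DMA2, a ubiquitin ligase gene of the cell cycle. DMA2 read 50.1, 44.3 and 69.4 in the control, 927, 905 and 984 in dried BY4743 and 686, 639 and 659 in the commercial yeast, and it differed between the dry yeasts by -0.39, with a 95% interval from -0.77 to -0.00 and an adjusted p of 0.0705.

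**Figure D4:**
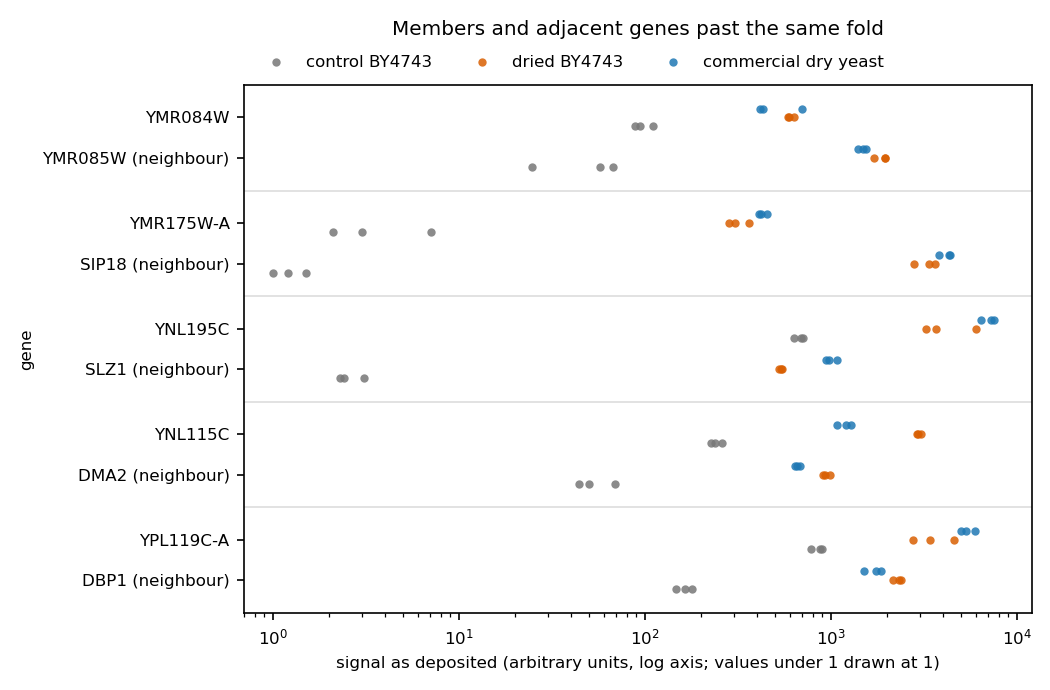
Deposited signal (arbitrary units, log axis, values under 1 drawn at 1) of the 5 adjacent pairs in which both genes passed the 4-fold in both dry groups, 1 point per array. In each pair both rows have their dry arrays to the right of their control arrays, and SIP18 and SLZ1 have control arrays near the left edge.

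The named partners of the duplicated genes were compared with them. These partners were picked after values were seen, from pairs known in yeast. PRO1, the partner of YHR033W, moved against it and read 841, 684 and 666 in the control, 33.9, 26.2 and 38.1 in dried BY4743 and 153, 121 and 144 in the commercial yeast. Its dried arrays lay at background, so its fall there was at least 14.3-fold (adjusted p = 1.08e-07), and in commercial yeast it fell by 2.47 on the log2 scale (adjusted p = 2.05e-06).

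GFA1, related to YMR084W and YMR085W, also fell while they were raised. It read 1220.2, 1509 and 1516 in the control, 561, 568 and 532 in dried BY4743 and 209, 159 and 222 in the commercial yeast. The change was -1.35 ± 0.15 in dried BY4743 (adjusted p = 9.66e-05) and -2.79 ± 0.15 in the commercial yeast (adjusted p = 1.49e-06).

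JIP4, the partner of YOR019W, has 2 probe sets. The change of 5988_at was -1.24 ± 0.10 in dried BY4743 (adjusted p = 1.19e-05) and -0.77 ± 0.10 in the commercial yeast (adjusted p = 0.000206). The change of 5989_at was -1.78 ± 0.17 in dried BY4743 (adjusted p = 2.8e-05) and -0.26 ± 0.17 in the commercial yeast (adjusted p = 0.189). Both were lower in dried BY4743, where YOR019W was raised most.

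FUN19 and YIR016W moved in the same direction as their partners, by less. FUN19 read 2193, 2046 and 1945 in the control, 4584, 4742 and 4272 in dried BY4743 and 5768, 4427 and 5312 in the commercial yeast. It rose by 1.33 ± 0.12 in dried BY4743 (adjusted p = 2.02e-05) and 1.15 ± 0.12 in the commercial yeast (adjusted p = 4.75e-05). YIR016W read 1194, 1185 and 1381 in the control, 3653, 3365 and 3385 in dried BY4743 and 3698, 4125 and 3474 in the commercial yeast. It rose by 1.69 ± 0.11 in dried BY4743 (adjusted p = 3.3e-06) and 1.54 ± 0.11 in the commercial yeast (adjusted p = 5.92e-06), and with spike-in scaling the commercial change was -0.33 for FUN19 and -0.07 for YIR016W.

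**Figure D5:**
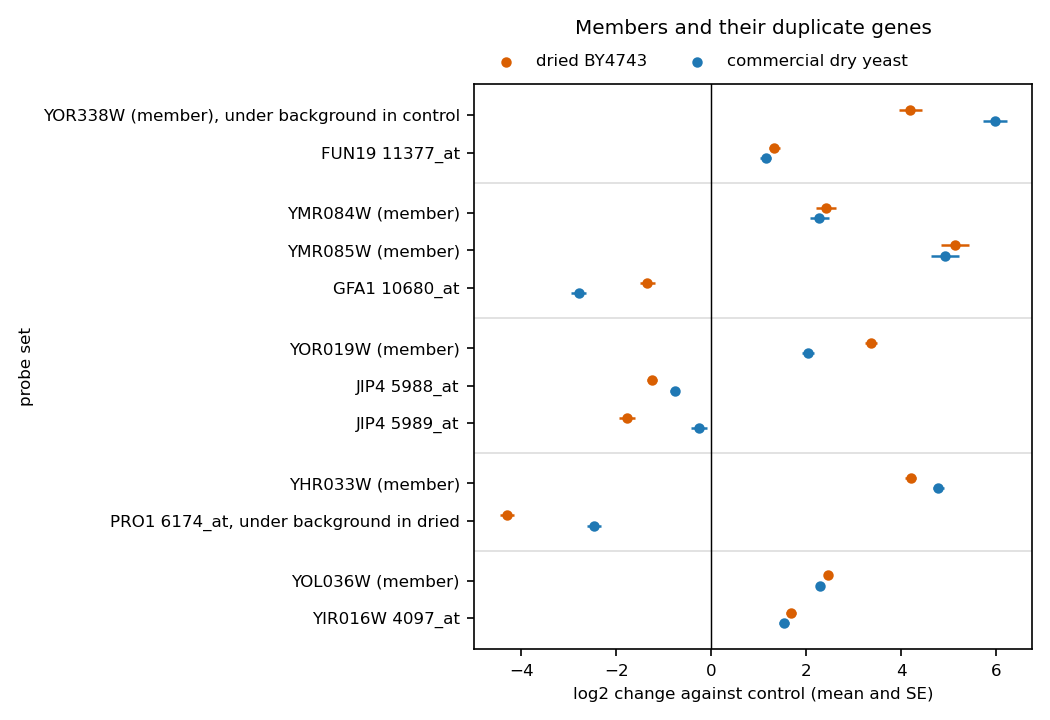
Log2 change against control BY4743 (quantile normalized, mean and SE of 3 arrays a group) of the members with a named duplicate and of the duplicate, in dried BY4743 and in commercial yeast. The members lie right of 0 throughout, FUN19 and YIR016W lie right of 0 but nearer to it, and PRO1, GFA1 and JIP4 lie left of it.

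The thresholds divide a continuous range of values. By the lower of the 2 folds, the last probe sets inside were YOR019W at 4.15, YPL119C-A at 4.22 and YER084W at 4.43. Just outside lay YDL199C at 3.99, YLR001C at 3.80 and YGR079W at 3.67. YDL199C had means of 171 in the control, 1195 in dried and 681 in commercial yeast, and YLR001C had 578, 2196 and 2235. The lowest dry means inside were 261 for YJR079W, 316 for YMR175W-A and 341 for YJR149W, and the fold with its floor already keeps out lower ones.

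The same thresholds were applied to named genes. The share past them was 28 of 535 (5.23%) for probe sets with a systematic name only that the rule could choose. It was 255 of 5967 (4.27%) for those with a gene name and 312 of 9275 (3.36%) over all. Of the 255 named probe sets past the thresholds, 70 were higher and 78 lower in commercial than in dried yeast, 58.0% together, against 60.7% of the 28. Of 20 genes known as targets of the stress activators Msn2 and Msn4, each by its brightest probe set, 2 passed the thresholds (10.0%). Their median change against the control was 0.37 in dried and 0.71 in commercial yeast, and -0.20 and -0.94 with spike-in scaling. Between the dry yeasts 14 of the 20 were higher and 0 lower in commercial yeast, against 33.1% and 33.5% of all probe sets. The median of that difference was 0.55, and -0.47 with spike-in scaling. None of these shares was tested against another.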

How the data were processed

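RNA of 9 samples, 3 in each of 3 groups, was measured on 1-colour Affymetrix Yeast S98 arrays. Sample titles gave the groups and the replicate numbers. Each deposited value is a linear intensity of 1 probe set, which, per the labels' protocols, the authors obtained with the array maker's software (version: not given in the sources used), naming also a signed rank test and a linear mixed model. Control probe sets (60) were left out, signals under 1 were raised to 1, log2 was taken, and arrays were quantile normalized because their log2 medians spanned 0.284, above a tolerance of 0.1. Group means were fitted over all 9 arrays by limma 3.58.1 in R 4.3.3 (lmFit and eBayes, 6 residual and 1.64 prior degrees of freedom), two-sided, with Benjamini-Hochberg adjustment over 9275 probe sets and a threshold of 0.05. In data simulated for commercial against dried yeast over 9275 probe sets, 153 of 200 2-fold changes were recovered and 3 others called. Dim probe sets were left out of the 200, and the noise was independent between probe sets. In the data 66.5% of probe sets were called, so the adjusted threshold was looser there. The simulation checks that the fit runs correctly, and its rates do not carry over to the data.

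Quantile normalization makes changes relative to the whole array. Spike-in scaling subtracted the mean log2 signal of 9 spike-in control probe sets on each array. That mean ran from 8.04 to 8.62 on the control arrays, 8.25 to 9.20 on the dried and 10.00 to 10.01 on the commercial arrays. Whether these controls track the amount of RNA per cell was not tested. Background was the 95th percentile of 28 control probe sets with absent targets on each array. Where no array of a group exceeded background, the change is a lower bound, for which the dim group's signals were raised to background before averaging. The precision is limited by the number of arrays.

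Names come from the platform annotation, in which 6504 name 1 gene and 328 several. The RefSeq table of assembly R64 gave later names, neighbours and spans; no genome build is known for the probes, so no coordinates are printed. Protein sequences and promoters were not analysed here. The genes, gene lists, roles and thresholds were chosen with earlier results of these data known. Values in every array were given for all 28 probe sets, which covers those set by the naming rule: the brightest, the most and least different between the dry yeasts and those at the thresholds. Alternatives were another normalization, floor or filter, a replicate block, fewer arrays and other thresholds of the choosing rule.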

Additional observations from a re-analysis of the deposited data

How the results depend on the processing

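Across 18 other settings of the fit and 14 of the choosing rule, counts of members kept within 1.5 times their value except under spike-in scaling, where 1 member was higher and 19 were lower in commercial than in dried yeast. The median change of the members moved from -0.11 to 0.039 with signals as deposited, 0.065 with median-centred arrays and -1.20 with spike-in scaling. The cause of the spike-in shift was not tested. Leaving out 1 array gave 6 to 8 members higher, 8 to 10 lower and a median of -0.13 to -0.04. Means without 1 array chose 27 to 30 probe sets, a fold of 3 chose 41, a fold of 6 chose 20, a control floor of 100 chose 22, and 23 passed with every dry array set against the highest control array. Single changes that turned sign were YGR201C (0.25) and YDR524C-B 5926_g_at (0.27) with signals as deposited, and YGR201C (0.28) and YDR524C-B 5926_g_at (0.30) with median-centred arrays. With spike-in scaling they were YHR033W (-0.51), YGR067C (-0.87), YER121W (-0.92), YCL048W-A (-1.06), YPL119C-A (-0.61), YOR186W (-0.56), YNL195C (-0.48) and YMR175W-A (-0.80). Without 1 commercial array YGR067C ranged from -0.022 to 0.124, YDR524C-B 5926_g_at from -0.082 to 0.019 and YMR084W from -0.411 to 0.013.

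With the replicate number as a block, 8 members were higher and 8 lower, the median was -0.11 and 5765 probe sets were called, against 6170. YNL195C (adjusted p = 0.0789) and YJL163C (0.0752) lost their calls and YMR175W-A gained one (0.0323). Same-numbered dried and commercial arrays did not deviate together (correlations over probe sets of -0.0096, -0.0401 and 0.0051). Neither did same-numbered control and dried arrays (0.0054, 0.0432 and 7e-04). Such correlations cannot show whether arrays of the same number shared a culture or were handled together. Signals near background scatter most, and 3 arrays a group limit what small differences can be called.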
